A study of Mus musculus with 16 samples.

Results

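The genes described here are 8 genes of mechanical stress and sarcomere remodelling in skeletal muscle: Ankrd1, Ankrd2, Ankrd23, Csrp3, Ablim1, Xirp1, Xirp2 and Mustn1. They were taken by symbol from the 11710 genes of the count table, and all 8 were among the 11709 genes tested. Ankrd1 and Mustn1 were picked because they rose strongly after surgery, so their levels with and after surgery are given as a description with no test. The other 6 were picked by function, with earlier results of these data known.

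Messenger RNA was sequenced from rotator cuff muscle of C57BL/6J mice (BL6 below), a common inbred reference strain, and of MRL/MpJ mice (MRL below), an inbred strain studied for its regrowth of some injured tissues. Each strain gave 4 samples from unoperated controls and 4 from animals whose rotator cuff tendon had been removed and whose muscle had been denervated, 16 samples in 4 groups. No group had only 1 of these manipulations, so tendon removal and denervation cannot be told apart. Below, before and after surgery stand for the unoperated and operated groups, and not for a muscle followed over time. The sample labels name the supraspinatus and the series text the infraspinatus. The labels do not say that each sample is a separate animal, so p-values measure only the spread between these samples. Age, sex and the time from surgery to collection are not given in the sources used here.

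Striated muscle cells sense load through the titin filament, which spans from the Z-disc to the middle of the sarcomere, and through the protein complexes that anchor actin at the Z-disc and at the muscle ends. The muscle ankyrin repeat proteins bind the spring region of titin and are also found in the nucleus. Their genes, and that of the Z-disc protein encoded by Csrp3, are known to respond to stretch, overload, unloading and denervation. Xin repeat proteins bind actin filaments at membrane attachment sites. Ankrd1 is also widely used as a target gene of YAP and TAZ, mechanically regulated cofactors of the TEAD transcription factors.

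The muscle identity of the samples was clear in the markers: the summed level of 10 fast-fibre genes was 56971 to 180380 CPM (counts per 1000000 counts of a sample), against 179 to 1439 CPM for 10 slow-fibre genes. Total counts per sample ranged from 24323862 to 43552964, at which 3 counts correspond to 0.0718 to 0.122 CPM, and the lowest value of any of the 8 genes in any sample was 10.1 CPM. In BL6 every operated sample had fewer total counts than every unoperated one, so depth and surgery cannot be told apart there. In 3 libraries other features stood apart from their group. Replicate 4 of operated MRL had 11.8% of its counts in mitochondrial genes (20.1 to 24.9% in the other operated MRL samples, 10.97 to 11.6% in the unoperated ones), a summed endothelial level of 340.2 CPM against 664 to 786 CPM, and a summed slow-fibre level of 1439 CPM against 224 to 631 CPM. Replicate 4 of operated BL6 had a summed fibroblast level of 5635 CPM against 1012 to 1718 CPM, and replicate 1 of unoperated MRL a summed macrophage level of 359.7 CPM against 86.7 to 113 CPM. Where leaving them out ended or gave a call of a gene named below, or clearly moved its fold change, the value without them is given as well.

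Ankrd1 lies on chromosome 19 at 36111961 to 36120099, Ankrd2 on chromosome 19 at 42036000 to 42045110 and Ankrd23 on chromosome 1 at 36530188 to 36536883. Csrp3 lies on chromosome 7 at 48830398 to 48848033 and Ablim1 on chromosome 19 at 57032733 to 57314919. Xirp1 lies on chromosome 9 at 120013755 to 120023598, Xirp2 on chromosome 2 at 67446002 to 67526614 and Mustn1 on chromosome 14 at 30879200 to 30881610. These are gene spans in GENCODE M21 on GRCm38. Xirp1 shares bases on the same strand with Cx3cr1, a macrophage receptor gene, which held 0.0645 to 7.31 CPM against at least 105 CPM for Xirp1. Ankrd23 overlaps Gm42417 on the same strand. On the opposite strand Ablim1 overlaps 4930449E18Rik and Xirp2 overlaps Gm13601. None of these other genes was among the genes tested, so their levels are not given.

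The sequences upstream of the start sites were read for the TEAD core motif, since TEAD factors carry the YAP and TAZ signal to Ankrd1. RefSeq windows on GRCm38.p6 were found for 7 of the 8 genes, 13 windows in all because some genes have several start sites. The 250 bases before each start were searched on both strands. The core, GGAATG or its reverse complement CATTCC, was present at 4 places, shown here because they are in genes that changed in opposite directions with surgery. Each is printed 5′ to 3′ on the strand of its gene, with the core in capitals.
Ankrd1, first site, chr19:36120037-36120066, minus strand: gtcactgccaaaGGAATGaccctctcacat
Ankrd1, second site, chr19:36119950-36119979, minus strand: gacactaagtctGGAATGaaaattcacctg
Ankrd23, second start site, chr1:36535842-36535871, minus strand: cccagtgggccaCATTCCcagaacggtatt
Ablim1, second start site, chr19:57274871-57274900, minus strand: catttctgttagCATTCCttctaggctccg
Relative to the base before the start site, counted as -1, these cores begin at -210 and -123 in Ankrd1, at -120 in Ankrd23 and at -220 in Ablim1. Of all 32536 windows of this length, 12.6% held this core, a share of windows and not of places. The Ankrd1 places lie in the same window, and the first Ankrd23 window and the other Ablim1 windows did not hold the core. Ankrd1 had both of its copies on its own strand, in bases that GENCODE M21 annotates as untranslated exon of another transcript. The windows of Ankrd2, Csrp3, Xirp2 and Mustn1 did not hold these letters.

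A MEF2 motif (Mef2 factors drive muscle genes, Xirp2 among them) was found in 1 of the 13 windows, that of Xirp2, against 2.89% of all windows. An AP-1 motif, TGANTCA, was found in the window of Xirp2 and in that of the second Ablim1 start site, against 6.73% of all windows. The search for the serum response element (CArG box), held by 1.48% of all windows, gave no match. None of these motifs overlaps another in the pieces printed, which show the MEF2 or AP-1 letters in capitals.
Xirp2, MEF2 motif, chr2:67445918-67445947, plus strand: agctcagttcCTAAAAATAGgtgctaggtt
Xirp2, AP-1 motif, chr2:67445884-67445913, plus strand: aaaggagtggtTGACTCAagccccacctag
Ablim1, AP-1 motif, second start site, chr19:57274818-57274847, minus strand: caggtactgccTGACTCActataaaagggg
These motifs begin at -74 and -107 in Xirp2 and at -168 in Ablim1. A match describes the letters in the window and not binding, and the count table does not tell the start sites of a gene apart.

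Surgery moved these genes in both directions. In BL6, 5 of the 6 genes open to a test were called at an adjusted p under 0.05 by edgeR's quasi-likelihood test, with Ankrd2, Csrp3 and Ablim1 higher and Ankrd23 and Xirp2 lower. Over all genes 67.9% were called in BL6, 35.1% higher and 32.8% lower. In MRL, 2 of the 6 were called, Csrp3 and Ablim1, both higher, against 45% of all genes (22.3% higher, 22.7% lower). Without replicate 4 of operated MRL, 4 of the 6 were called in MRL, against 52.5% of all genes. Ankrd23 and Xirp2 were then called lower. Without the 3 libraries that stood apart 3 were called in MRL, against 62.4% of all genes. These were Ablim1, higher, and Ankrd23 and Xirp2, lower. The samples of the operated and unoperated groups did not overlap for the 5 called genes in BL6 and for Ablim1 alone in MRL, where 56.8% and 33.7% of all genes had groups that did not overlap. Ankrd1 and Mustn1, chosen for their rises, were higher in every operated sample than in any unoperated sample of the same strain.

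**Figure D1:**
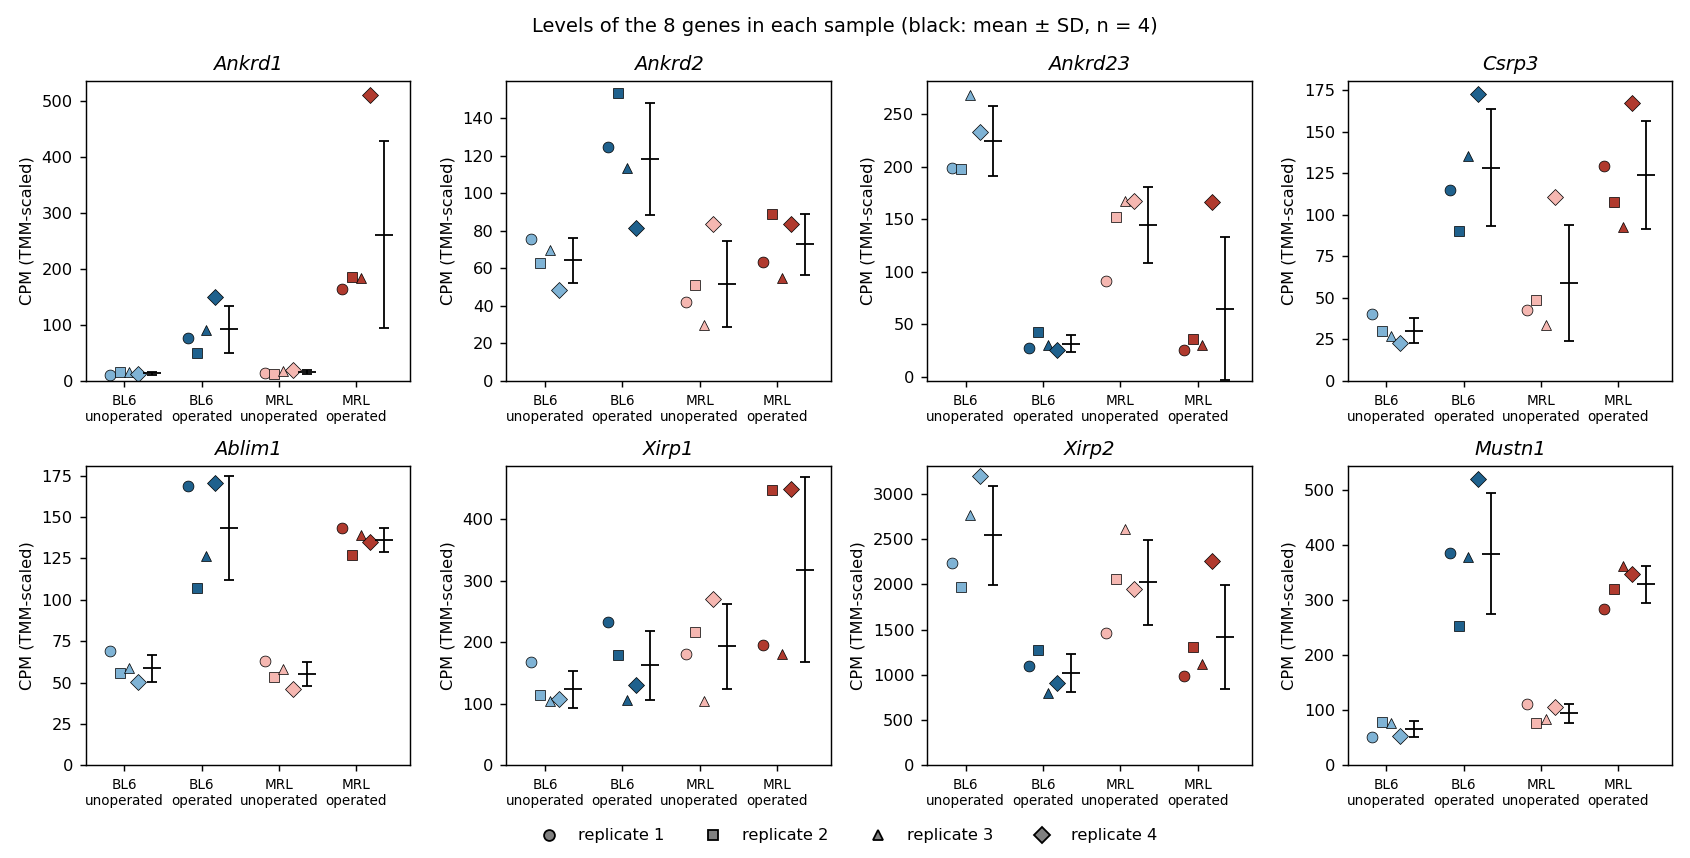
CPM scaled by trimmed mean of M values (TMM) factors for each of the 8 genes in the 16 samples, 1 panel per gene, with symbols marking the replicate number and black bars the mean ± SD of the 4 samples of a group. Ankrd1 and Mustn1 are high in all operated samples, while Ankrd23 is low in 7 of the 8 operated samples and stands at 167 CPM in replicate 4 of operated MRL.

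Ankrd1 encodes the cardiac ankyrin repeat protein, which in adult limb muscle is scarce until the muscle is injured or loaded. It held 10.1, 15.8, 15.6 and 13.02 CPM in unoperated BL6 replicates 1 to 4 and 75.9, 50.6, 91.5 and 151 CPM after surgery. In MRL it held 14.1, 11.9, 16.8 and 19.1 CPM before and 165, 186, 183 and 511 CPM after surgery. Every operated sample lay above every unoperated one, and all 4 operated MRL samples lay above all 4 operated BL6 samples. The highest operated BL6 sample and the lowest operated MRL sample were 151 and 165 CPM, a gap smaller than the spread within either group. The log2 fold change with surgery was 2.76 (SE 0.38) in BL6 and 4.08 (SE 0.40) in MRL, and MRL exceeded BL6 after surgery by 1.504 (SE 0.36). Replicate 4 of operated MRL, one of the libraries that stood apart, carried part of this: without it the rise in MRL was 3.52 and the excess over operated BL6 0.94. The sample at 151 CPM, replicate 4 of operated BL6, stood apart as well, and without it the excess was 1.85. Without all 3 such libraries the excess was 1.30, with rises of 2.39 in BL6 and 3.47 in MRL. Before surgery the strains overlapped, with a log2 difference of 0.18 (SE 0.36) and an adjusted p of 0.810 by edgeR.

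Ankrd2 encodes an ankyrin repeat protein that is most abundant in slow fibres and is known to respond to stretch and denervation. Its level went from 48.4 to 75.9 CPM in unoperated BL6 to 81.6 to 154 CPM in operated BL6, groups that did not overlap. The log2 fold change in BL6 was 0.88 (SE 0.27), with an adjusted p of 0.00965 by edgeR. In MRL its range was 30.1 to 83.6 CPM before and 54.7 to 89.2 CPM after surgery, and the groups overlapped. Its log2 fold change of 0.49 there did not pass, at an adjusted p of 0.143 by the same test. The highest unoperated MRL value, 83.6 CPM, was that of replicate 4, and without this sample the change was 0.83 and was called, at an adjusted p of 0.0195 by that test.

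Ankrd23, also called DARP, encodes the third muscle ankyrin repeat protein, which is linked to energy metabolism. In BL6 it held 199, 198, 268 and 233 CPM in unoperated replicates 1 to 4 and 27.3, 43.1, 30.1 and 26.1 CPM in operated ones. In MRL it held 91.3, 152, 167 and 167 CPM before and 26.1, 35.7, 30.7 and 167 CPM after surgery. All operated BL6 samples lay far under the unoperated ones, and 3 of the 4 operated MRL samples lay at about the level of operated BL6. Replicate 4 of operated MRL was at the level of unoperated MRL muscle for this gene. The log2 fold change in BL6 was -2.83 (SE 0.49), with an adjusted p of 0.000178 by edgeR.

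In MRL the fall of Ankrd23 depended on that library. With all samples the log2 fold change was -1.15 (SE 0.46) and did not pass, at an adjusted p of 0.0526 by edgeR. Without replicate 4 of operated MRL it was -2.23, with an adjusted p of 1.25e-05 by the same test. Without all 3 libraries that stood apart it was -2.41, with an adjusted p of 9.24e-07. With all samples it was called by DESeq2 (adjusted p 0.0179) and by limma-voom (adjusted p 0.0114), and in the authors' deposited table its log2 fold change was -1.26 with a false discovery rate of 0.0299. The mitochondrial share and the endothelial sum of replicate 4 lay near the unoperated MRL samples too, whereas its Ankrd1, Csrp3, Ablim1 and Mustn1 levels lay above every unoperated MRL sample. The part of the library's make-up in the Ankrd23 level was not tested.

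**Figure D2:**
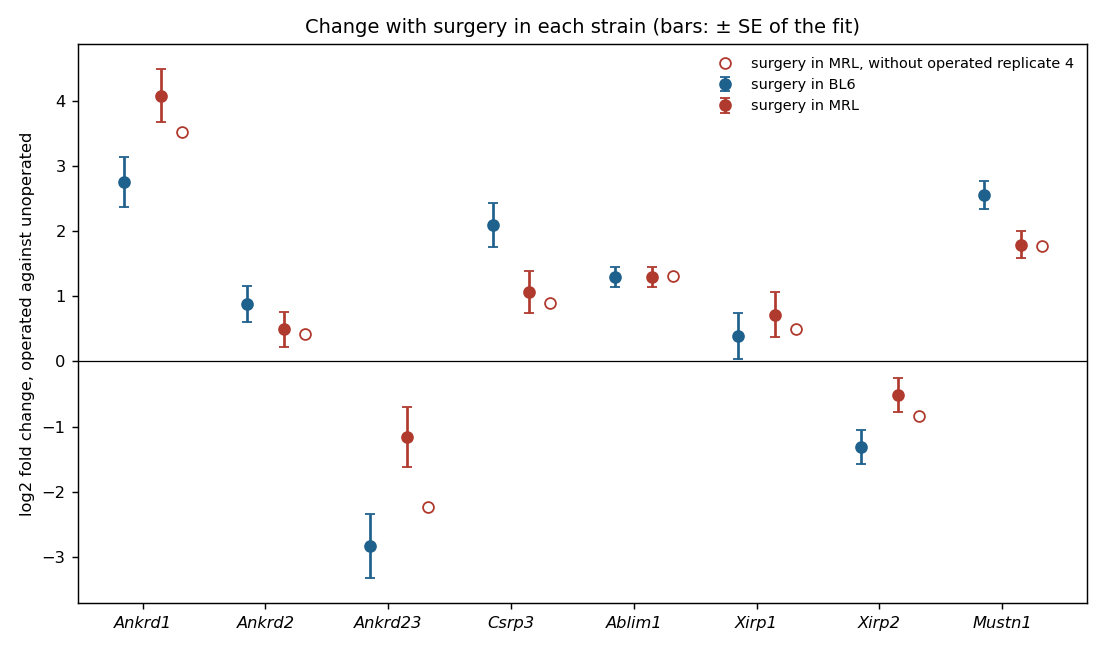
Log2 fold change of operated against unoperated samples for each of the 8 genes in BL6 (blue) and MRL (red), with bars of ± SE from the edgeR fit, and as open circles the MRL value without operated replicate 4. Leaving out that sample moves Ankrd23 from -1.15 to -2.23 and Xirp2 from -0.51 to -0.83, and Ankrd1 from 4.08 to 3.52.

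Levels of different genes can be set side by side only per length, and on that scale, CPM per kilobase (kb) of annotated exon, the make-up of the ankyrin repeat trio turned over with surgery. The numbers are a description, since Ankrd1 was chosen for its rise. In unoperated BL6 the trio summed to a mean of 144 CPM per kb, of which Ankrd23 made up 57.6% ± 5.91 (SD, n = 4), Ankrd2 39.1% ± 6.16 and Ankrd1 3.29% ± 0.68. In operated BL6 the sum was 148 CPM per kb, and the shares were 7.87% ± 1.14 for Ankrd23, 69.7% ± 11.46 for Ankrd2 and 22.4% ± 12.1 for Ankrd1. The mean total was thus close in operated and unoperated BL6, while the share of Ankrd23 was smaller and the shares of the other members larger in operated samples.

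In unoperated MRL the trio summed to 104 CPM per kb, with 51.9% ± 10.2 from Ankrd23, 42.8% ± 10.5 from Ankrd2 and 5.31% ± 1.23 from Ankrd1. In operated MRL the sum was 179 CPM per kb, with 11.4% ± 5.64 from Ankrd23, 39.6% ± 11.6 from Ankrd2 and 49.1% ± 6.601 from Ankrd1. Ankrd1 was the smallest part of the trio in every unoperated sample. In operated MRL it was the largest part in 3 of the 4 samples, and Ankrd2 was the largest in every operated BL6 sample. Replicate 4 of operated MRL had the highest sum, and Ankrd23 still made up 19.8% of it. Without the libraries that stood apart, the sum was 152 CPM per kb in operated BL6, 114 CPM per kb in unoperated MRL and 134 CPM per kb in operated MRL, and Ankrd1 made up 16.9% ± 6.00 of it in operated BL6 and 46.5% ± 5.17 in operated MRL (SD, n = 3).

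**Figure D3:**
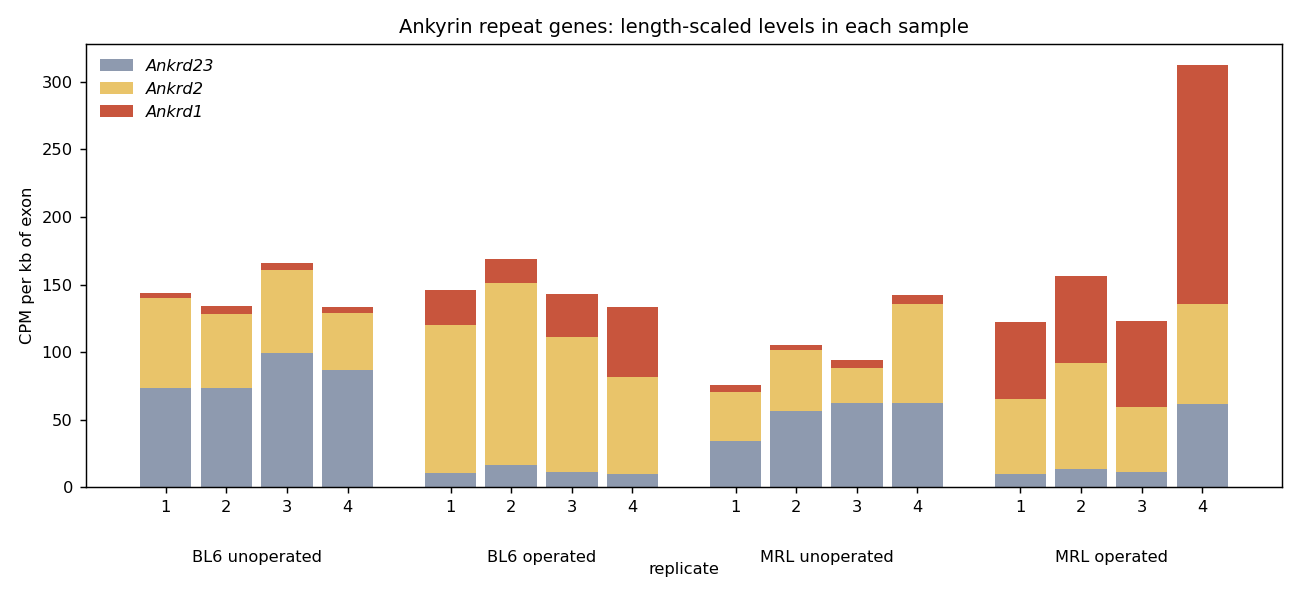
Stacked bars of CPM per kb of annotated exon for Ankrd23, Ankrd2 and Ankrd1 in each of the 16 samples, grouped by strain and surgery. Ankrd23 is the larger lower part of most unoperated bars and thin in operated ones except replicate 4 of operated MRL, and Ankrd1 is tallest in operated MRL, at a mean of 49.1%.

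Csrp3 encodes muscle LIM protein, a Z-disc protein with a pair of zinc-binding LIM domains that takes part in stretch sensing and is more abundant in slow than in fast fibres. It held 40.4, 29.99, 27.1 and 22.8 CPM in unoperated BL6 and 115, 90.5, 136 and 173 CPM in operated BL6. In MRL it held 42.8, 48.9, 33.8 and 111 CPM before and 129, 107, 92.4 and 167 CPM after surgery. The BL6 groups were far apart, while in MRL replicate 4 of the unoperated group lay among the operated samples. The log2 fold change was 2.09 (SE 0.33) in BL6, with an adjusted p of 9.83e-05 by edgeR, and 1.07 (SE 0.32) in MRL, with an adjusted p of 0.0155. Without the 3 libraries that stood apart the MRL value was 0.76 and no longer passed, at an adjusted p of 0.0668 by that test. The operated groups of the strains overlapped over nearly their whole range, with means of 128 and 124 CPM. The unoperated level was 30.1 ± 7.49 CPM in BL6 and 59.0 ± 35.0 CPM in MRL (SD, n = 4). Without replicate 4 of unoperated MRL the rise in MRL was 1.57.

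Ablim1 encodes an actin-binding LIM protein that links actin filaments to other cytoplasmic targets and is found near the Z-disc. Its unoperated levels were 69.3, 55.9, 58.7 and 50.3 CPM in BL6 and 63.4, 53.2, 58.1 and 46.05 CPM in MRL. Its operated levels were 168, 107, 126 and 171 CPM in BL6 and 143, 127, 139 and 135 CPM in MRL. Operated and unoperated samples were separate in both strains, and the strains overlapped in either condition. Ablim1 rose by a log2 fold change of 1.29 (SE 0.15) in BL6, with an adjusted p of 1.70e-05 by edgeR. In MRL the rise was 1.30 (SE 0.15), with an adjusted p of 0.000240 by that test. The difference between these rises was 0.01 (SE 0.21). The gene has 21 annotated transcripts, and gene counts do not show which of them rose.

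Xirp1 and Xirp2 encode the Xin repeat proteins, which bind and stabilise actin filaments and are found at the myotendinous junction of skeletal muscle and at the intercalated disc of the heart. Xirp2 was the most abundant of the 8 genes per length in unoperated muscle of both strains, at 212 ± 45.5 CPM per kb in BL6 and 169 ± 39.3 CPM per kb in MRL (SD, n = 4). It held 2232, 1974, 2767 and 3190.0 CPM in unoperated BL6 and 1103, 1279, 797 and 906 CPM in operated BL6. In MRL it held 1466, 2055, 2612 and 1950.0 CPM before and 985, 1304, 1116 and 2253 CPM after surgery. The BL6 groups were separate. In MRL 3 operated samples lay under every unoperated one, and replicate 4 lay among the unoperated ones, as for Ankrd23.

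The log2 fold change of Xirp2 was -1.32 (SE 0.26) in BL6, with an adjusted p of 0.000517 by edgeR. In MRL it was -0.51 and did not pass, at an adjusted p of 0.113 by that test. Without replicate 4 of operated MRL it was -0.83, with an adjusted p of 0.00656, and without the 3 libraries that stood apart it was -0.97, with an adjusted p of 0.00123 by the same test. Titin (Ttn), the largest partner of the ankyrin repeat proteins, had a similar pair of values: -1.27 in BL6, with an adjusted p of 0.00145, and -0.42 in MRL, with an adjusted p of 0.240 by that test. Ttn was called lower in MRL too without the 3 libraries that stood apart, at -0.77 with an adjusted p of 0.0184 by edgeR. Unlike Xirp2, it was not called without replicate 4 of operated MRL alone, at -0.64 with an adjusted p of 0.0733 by that test.

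Xirp1 did not follow Xirp2. It held 169, 114, 105 and 107 CPM in unoperated BL6 and 234, 179, 106 and 131 CPM in operated BL6. In MRL it held 181, 217, 105 and 271 CPM before and 196, 448, 181 and 448 CPM after surgery. The groups overlapped in both strains, and the operated MRL samples fell into a lower and a higher pair. The log2 fold change was 0.39 (SE 0.35) in BL6, with an adjusted p of 0.325, and 0.72 (SE 0.35) in MRL, with an adjusted p of 0.0996, neither of which passed in edgeR's quasi-likelihood test. Xirp1 made up 9.43% ± 3.21 of the summed Xin repeat level per kb in unoperated BL6 and 24.2% ± 4.10 in operated BL6 (SD, n = 4), and 16.9% ± 6.46 and 31.1% ± 7.11 in MRL.

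Mustn1 encodes a small protein of the musculoskeletal system that is active in muscle regeneration and cartilage formation. It held 51.9, 78.1, 77.5 and 53.6 CPM in unoperated BL6 and 384, 252, 379 and 520.0 CPM in operated BL6. In MRL it held 112, 76.1, 84.9 and 106 CPM before and 284, 320.3, 361 and 347 CPM after surgery. Operated and unoperated samples were separated by a wide gap in both strains, and the operated groups overlapped. Its log2 fold change was 2.56 (SE 0.22) in BL6 and 1.79 (SE 0.21) in MRL. After surgery Mustn1 was the most abundant of the 8 genes per length, at 311 ± 88.5 CPM per kb in BL6 and 265 ± 27.5 CPM per kb in MRL (SD, n = 4), and before surgery it stood at 52.8 ± 11.7 and 76.6 ± 13.7 CPM per kb.

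Markers of other cell types and of fibre types changed with surgery as well, and in whole muscle fewer cells of a type and less RNA per cell cannot be told apart. Over all genes 35.1% were called higher and 32.8% lower in BL6, and 22.3% and 22.7% in MRL. Without the 3 libraries that stood apart 67.6% of all genes were called in BL6 and 62.4% in MRL. Without replicate 4 of operated MRL alone 52.5% were called in MRL. Of 9 smooth muscle and pericyte genes, 8 were called higher in BL6 and 7 in MRL. Their summed level was 517 to 594 CPM in unoperated and 884 to 1524 CPM in operated BL6, and 438 to 575 and 797 to 1373 CPM in MRL. Of 10 slow-fibre genes, 3 were called higher in BL6 and 8 in MRL, and without replicate 4 of operated MRL 4 of them in MRL. Of 10 fast-fibre genes, 3 were called lower in BL6 and 2 in MRL, with median log2 fold changes of -0.28 and -0.17. The fast-fibre counts in both strains and the slow-fibre count in BL6 were near the shares over all genes. Without the 3 libraries that stood apart, 2 fast-fibre genes were called higher in BL6 and 3 lower. In tenocyte markers, 5 of 5 rose in BL6 and 2 of 5 in MRL, with sums of 80.5 to 115 CPM before and 258 to 1164 CPM after surgery in BL6, and 94.0 to 290.1 and 228 to 583 CPM in MRL. Of 8 macrophage genes, 6 were called higher in BL6 and 1 in MRL. Without the 3 libraries that stood apart, 4 of the 5 tenocyte and 5 of the 8 macrophage genes were called higher in MRL. Of 8 fibroblast genes, 5 were called higher in BL6 and 1 in MRL, or 3 and 2 without those libraries, and their summed level was 628 to 1489 CPM before and 1012 to 5635 CPM after surgery in BL6 and 1290 to 2114 and 1687 to 3152 CPM in MRL.

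Most endothelial, Schwann cell and adipocyte genes were higher after surgery as well. Of 6 endothelial genes, 5 were called higher in BL6 and 6 in MRL, with sums of 313 to 435 CPM before and 630.3 to 840 CPM after surgery in BL6 and 243 to 337 and 340.2 to 786 CPM in MRL. Of 6 Schwann cell genes, 6 were called higher in BL6 and 5 in MRL, with sums of 81.0 to 108 and 218 to 541 CPM in BL6 and 70.9 to 133 and 125 to 363 CPM in MRL. Of 6 adipocyte genes, 5 were called higher in each strain, with sums of 1224 to 1492 and 1986 to 2744 CPM in BL6 and 1122 to 1293 and 2026 to 2959 CPM in MRL. Of 3 satellite cell genes tested, 1 was called higher and 2 lower in BL6, and 1 higher and 1 lower in MRL. The markers that changed most in both strains without overlap had these log2 fold changes, in BL6 and in MRL: the endothelial genes Tie1 1.30 and 1.23 and Cdh5 1.09 and 1.27, and the Schwann cell genes S100b 2.29 and 1.24 and Pmp22 2.18 and 1.08. The tenocyte genes Comp and Thbs4 had 4.29 and 2.04, and 2.47 and 1.51. The adipocyte genes Adipoq and Cidec had 3.17 and 2.59, and 2.76 and 2.32. Among fibre-type genes, the slow tropomyosin gene Tpm3 had 1.04 and 1.38, and the fast-fibre calcium-handling genes Casq1 and Atp2a1 had -1.48 and -1.21, and -1.22 and -0.95. Leaving out the 3 libraries that stood apart gave BL6 values of 2.88 for Comp, 1.83 for Thbs4, 1.95 for Adipoq and 1.79 for Cidec, and MRL values of 1.90 for Adipoq, 1.58 for Cidec and 2.04 for Thbs4. The part of all these cell types in the changes of Ankrd1, Csrp3, Ablim1 and Mustn1 was not tested. In replicate 4 of unoperated MRL, where Csrp3 and Ankrd2 were highest of their group, the slow-fibre sum was 253 CPM, also the highest of its group. Replicates 1 to 3 held 179, 251 and 246 CPM. The part of slow fibres in these Csrp3 and Ankrd2 levels was not tested.

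In unoperated muscle 0 of the 8 genes differed between the strains by edgeR's quasi-likelihood test, against 10.4% of all genes (5.02% higher and 5.36% lower in MRL). At an unadjusted p under 0.05 there were 2, Csrp3 and Mustn1, but the share of all genes at that cutoff was not counted. DESeq2 called 1, Csrp3, with 1666 of the 11709 genes called in all. In limma-voom 0 were called, with 1211 in all. Csrp3 was higher in MRL by 0.97 (SE 0.32), with an adjusted p of 0.0703 by edgeR and of 0.0216 in DESeq2. Without replicate 4 of unoperated MRL, the sample at 111 CPM, the difference was 0.47, with an adjusted p of 0.314 by edgeR, and without the 3 libraries that stood apart it was 1.09 and was called, with an adjusted p of 0.0332. Mustn1 was higher by 0.54 (SE 0.21), with an adjusted p of 0.118 by edgeR. For Ankrd23 every MRL sample, at 91.3 to 167 CPM, lay under every BL6 sample, at 198 to 268 CPM, a separation shared by 25.1% of all genes. Its log2 difference was -0.64 (SE 0.46), with an adjusted p of 0.430 by edgeR with all samples and of 0.0433 without replicate 4 of operated MRL, which enters through the shared estimate of the spread.

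After surgery 0 of the 6 genes open to a test differed between the strains in edgeR's quasi-likelihood test, against 12.9% of all genes (7.6% higher and 5.27% lower in MRL). At an unadjusted p under 0.05 there were 3, Ankrd2, Ankrd23 and Xirp1, again without a share of all genes at that cutoff. DESeq2 called 1, Xirp1, with 1932 of the 11709 genes called in all. In limma-voom 0 were called, with 1445 in all. Xirp1 was higher in operated MRL by 0.97 (SE 0.35), with an adjusted p of 0.0823 by edgeR. Without replicate 4 of operated MRL that was 0.75, with an adjusted p of 0.221 by the same test, and without replicate 3 it was 1.16 and was called, with an adjusted p of 0.0373. Ankrd2 was lower in operated MRL by a log2 difference of -0.70 (SE 0.27), with an adjusted p of 0.106. Ankrd23 had a difference of 1.04 (SE 0.46), with an adjusted p of 0.164 by that test, and of -0.04 without replicate 4.

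The interaction, the effect of surgery in MRL minus that in BL6, was called for 0 of the 6 genes in edgeR's quasi-likelihood test, against 0.248% of all genes (0.154% more positive and 0.0939% more negative in MRL). At an unadjusted p under 0.05 there were 3, Ankrd23, Csrp3 and Xirp2, again without a share of all genes at that cutoff. DESeq2 and limma-voom each called 0 of the 6, with 250 and 24 of all genes called. Ankrd23 had an interaction of 1.67 (SE 0.65) with an adjusted p of 0.248 by edgeR, and of 0.60 without replicate 4 of operated MRL. Csrp3 had an interaction of -1.02 (SE 0.45), with an adjusted p of 0.295, and Xirp2 one of 0.80 (SE 0.37), with an adjusted p of 0.305. That of Xirp2 was 0.48 without replicate 4 of operated MRL and 0.32 without the 3 libraries that stood apart. The genes called in BL6 and not in MRL are therefore not shown to respond differently. As a description, the interaction of Ankrd1 was 1.32 (SE 0.51). It was 0.76 without replicate 4 of operated MRL and 1.08 without the 3 libraries that stood apart. That of Mustn1 was -0.76 (SE 0.29), or -0.51 without the 3 libraries.

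**Figure D4:**
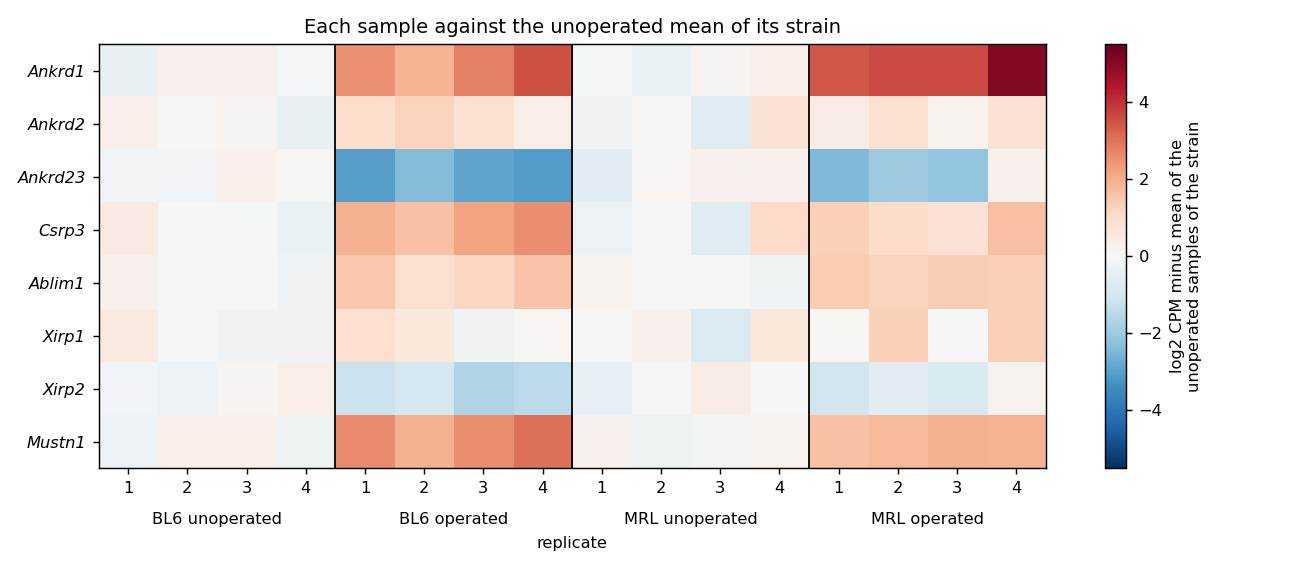
Heat map of log2 CPM of each gene in each sample minus the mean of the unoperated samples of its strain, in red where higher and blue where lower. Operated columns are red for Ankrd1, Mustn1, Csrp3 and Ablim1 and blue for Ankrd23 and Xirp2, except that replicate 4 of operated MRL is near 0 for Ankrd23 and Xirp2.

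The partners of these proteins at the I-band, the Z-disc and the muscle attachment changed in both directions, as did genes at large. Over all genes, the background of every gene list here, 35.1% were called higher and 32.8% lower in BL6, and 22.3% and 22.7% in MRL. Of 20 partners tested, 6 were called higher and 10 lower in BL6, and 3 higher and 4 lower in MRL. Their median log2 fold changes were -0.36 and -0.04, against 0.04 and 0.01 over all genes. Without the 3 libraries that stood apart, 4 were called higher and 7 lower in MRL, where 62.4% of all genes were then called. Fhl2, a LIM protein that binds titin, went from 1.42 ± 0.34 to 7.53 ± 5.58 CPM in BL6 and from 2.14 ± 0.23 to 5.63 ± 2.98 CPM in MRL (SD, n = 4). The log2 fold changes of Fhl2 were 2.41 and 1.40, with adjusted p of 0.000444 and 0.0222 by edgeR. In operated BL6, replicate 4 held 15.5 CPM of Fhl2 against 2.63 to 6.54 CPM in the other samples, and without the 3 libraries that stood apart the values were 1.76 and 1.09, both called. Without replicate 4 of operated MRL alone the MRL value was 1.07 and did not pass, at an adjusted p of 0.0693. Actn2, the alpha-actinin of the Z-disc, rose by 1.12 in BL6 and 1.02 in MRL. Capn3, a titin-bound protease, had log2 fold changes of -0.86 and -0.57, lower by the test in each strain.

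Among 14 genes of YAP, TAZ, TEAD and their common targets, 8 were called higher and 3 lower in BL6, and 7 higher and 2 lower in MRL, with medians of 0.56 and 0.33. Without the 3 libraries that stood apart the counts were 6 and 3 in BL6 and 7 and 4 in MRL. Ctgf, a secreted matrix protein gene much used as a YAP target, went from 39.7 ± 5.48 to 162 ± 109 CPM in BL6 and from 43.9 ± 4.47 to 94.3 ± 41.0 CPM in MRL (SD, n = 4). Its log2 fold changes were 2.03 and 1.10, or 1.42 and 0.99, both called, without the 3 libraries that stood apart, and without replicate 4 of operated MRL alone the MRL value was 0.95, with an adjusted p of 0.0538 by edgeR. That of Ajuba, a LIM protein that binds Hippo pathway kinases, was 1.36 in BL6 and 0.95 in MRL. Without the 3 libraries that stood apart Ajuba had 0.97 and 1.25. Wwtr1, the gene of the cofactor TAZ, rose by 1.12 and 1.19, with adjusted p of 0.000103 and 0.000660 by edgeR. Yap1 had log2 fold changes of -0.06 and 0.03 and Tead4 of -0.02 and -0.17, none called. Tead1, a TEAD factor of muscle, was lower after surgery, at 258 ± 25.3 and 67.0 ± 21.7 CPM in BL6 and 372 ± 86.2 and 116 ± 59.0 CPM in MRL. Its log2 fold changes were -1.94 and -1.69, with adjusted p of 8.09e-05 and 0.00125 in edgeR's test. In Tead1, too, replicate 4 was the highest of the operated MRL samples, at 204 CPM against 76.7 to 91.4 CPM, and without the 3 libraries that stood apart the MRL value was -2.28.

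Among 17 genes of SRF, its MRTF cofactors and their common targets, another load-sensitive pathway, 10 were called higher and 4 lower in BL6, and 10 higher and 3 lower in MRL, with medians of 0.98 and 0.94. The largest rises called in both strains with groups that did not overlap, Cnn1 and Tagln, are contractile genes of smooth muscle and stand in the smooth muscle list as well. Tagln rose by 2.49 in BL6 and 1.44 in MRL, and Cnn1 by 2.62 and 1.76. For Cnn1 the values without the 3 libraries that stood apart were 1.92 and 1.85, and for Tagln 2.12 and 1.70. Srf itself fell by 1.32 and by 1.08, and Acta1, the actin of skeletal fibres, fell by 0.99 and by 0.76.

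Among paralogs of the LIM genes, Csrp2, Csrp1 and Ablim3 were called higher in each strain. Csrp2 rose by 2.85 in BL6 and 1.86 in MRL, and Csrp1 by 1.67 and 1.05, both genes with a known role in smooth muscle. Ablim3 rose by 1.22 and 1.10. Without the 3 libraries that stood apart Csrp2 had 2.29 and 2.07. Csrp1 then had 1.43 and 1.17, and Ablim3 1.25 and 1.42. Of 7 genes of immature or regenerating fibres, 3 were called higher and 1 lower in BL6, and 4 higher and 1 lower in MRL (2 higher without replicate 4 of operated MRL). Myog, the myogenin gene that rises in denervated fibres, had log2 fold changes of 2.05 and 1.85.

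The genes nearest in pattern to each of the 8 were found by the root mean square difference of log2 CPM over the 16 samples, each gene centred on its own mean, among genes with a mean of 5 CPM or more. The samples share their libraries and their 2 factors, so nearness is a description. The distance also grows with a gene's own variation, whose root mean square about the gene's mean was 1.79 for Ankrd1 and 0.585 to 1.29 for the others. Xirp2 lay nearest to Akap6, Tsc1 and Ash1l, at 0.140, 0.149 and 0.151 log2 units. Ankrd23 lay nearest to Ubxn2a, Paip2b and Thtpa, at 0.255, 0.267 and 0.297. These shared its exception: Ubxn2a held 12.98 to 17.1 CPM in operated MRL replicates 1 to 3 and 59.9 CPM in replicate 4, and Paip2b 25.3 to 33.6 and 87.3 CPM. Akap6 likewise held 35.8 to 39.4 CPM in those 3 samples and 78.5 CPM in replicate 4.

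Ablim1 lay nearest to Pxdn, Magi1 and Parva, at 0.200, 0.205 and 0.206, and Mustn1 to Smagp, Cpne2 and Spsb2, at 0.316, 0.323 and 0.340. The nearest genes to Csrp3 were Klf5, Hspb7 and Ppp1r27, at 0.373, 0.376 and 0.384. Ankrd2 was closest to Cebpb, Slc38a3 and Gpank1, at 0.308, 0.351 and 0.357, and Xirp1 to Lmcd1, Abra and Slc22a4, at 0.356, 0.389 and 0.393. For Ankrd1 the nearest were Ifi27l2a, Cpne2 and Cidec, at 0.773, 0.778 and 0.813. Divided by the gene's own variation, the distance to the nearest gene was 0.197 for Ankrd23, 0.231 for Xirp2, 0.278 for Mustn1, 0.297 for Ablim1, 0.385 for Csrp3, 0.433 for Ankrd1, 0.527 for Ankrd2 and 0.538 for Xirp1. Cpne2 was near to both Ankrd1 and Mustn1.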

How the data were processed

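RNA sequencing counts of 16 samples in 4 groups of 4 were analysed, grouped by the labels' strain and surgery. The deposited values are raw counts, as whole numbers, 1 column per sample. Per the submitters' processing notes FastQC, STAR and edgeR were used with the mm10 build, without versions; the counter and the use of strand are not given in the sources used here, so genes that overlap on either strand cannot be told apart. The authors' deposited table of comparisons gives p-values, false discovery rates and log2 fold changes, and its average log2 CPM was not used.

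Counts were fitted with edgeR 4.0.16 in R 4.3.3: TMM scaling, filterByExpr at a minimum count of 10, 1 quasi-likelihood model with a mean per group over all samples, and Benjamini-Hochberg adjustment over 11709 genes. DESeq2 1.42.0 and limma 3.58.1 (voom) were alternatives, as were other scalings, no filter, only the 2 groups compared, a replicate block and each sample left out. The main edgeR fit, DESeq2 and limma-voom were run on simulated counts, for the surgery comparison in each strain. The other alternatives were not. CPM use TMM-scaled totals, and log2 CPM a prior count of 2. No replicate pair agreed within sampling noise.

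The 8 genes and the 15 gene lists (140 genes, 133 of them tested) were chosen with earlier results of these data known. The text names, per list, the genes with the largest changes called in both strains whose groups do not overlap, up to 2 in each direction, and the 3 genes nearest in pattern to each of the 8. Ttn, Ablim3, Wwtr1, Yap1 and Tead4 stand outside this rule, picked with their values in view. A further listed gene is not reported here. The promoter motifs were counted over the 250 bases before each RefSeq start site.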

Additional observations from a re-analysis of the deposited data

Results flagged for a closer look

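In the 8 genes and 4 groups, 32 sets of 4 samples were searched for a sample far from the others of its group, by the gap to its nearest neighbour as a share of the range. Chance alone gives about 1 such sample in 20 sets. Of the 3 found, 1 is in operated MRL values of Ankrd1, which chose the gene, so the number is not set against chance. Replicate 4 of operated MRL held 511 CPM of Ankrd1, against 165 to 186 CPM in the other operated MRL samples. The same library held 167 CPM of Ankrd23, against 26.1 to 35.7 CPM. Replicate 1 of unoperated BL6 held 169 CPM of Xirp1, against 105 to 114 CPM.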

How the results depend on the processing

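Over 24 alternatives the log2 fold changes of the 8 genes gave 952 values. Of the 762 with a test, 725 kept their direction and their side of the threshold, 17 gained a call, 1 lost one and 19 changed sign, none of those called. Of the 190 values of Ankrd1 and Mustn1 given without a test, 4 moved by more than their error and 186 did not, and none changed sign. In BL6 5 of 6 genes were called under every alternative. In MRL, 2 to 4 were called on leaving out each replicate, and in the strain comparisons 0 to 1, before and after surgery. DESeq2 called 1 gene in unoperated muscle (Csrp3) and 1 after surgery (Xirp1). With only the 2 groups compared 1 was called in unoperated muscle (Ankrd23), and without the 3 libraries that stood apart, a choice made after seeing the data, also 1 (Csrp3).

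Over all genes, leaving out each replicate gave 7189 to 8177 calls for surgery in BL6, 3490 to 6145 in MRL, 821 to 1572 between unoperated strains, 1030 to 1842 between operated strains and 1 to 69 for the interaction. The 29 interaction calls became 14 with total counts alone, 250 with DESeq2 and 67 without the 3 libraries. With only the 2 groups compared, unoperated strains differed in 2438 genes and operated strains in 575, from 1216 and 1507; these fits have fewer samples. The labels do not say that the replicate numbers pair the samples, and 4 samples a group are too few to settle it. Deviations of same-numbered samples correlated at -0.141 to 0.165 on average between groups, and those of differently numbered samples at -0.0463 to 0.0531. With the replicate block the interaction called 2 genes, and Ankrd23 was called in MRL, at -1.40 (adjusted p 0.0205, edgeR); of the other 7 genes none gained or lost a call.

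Signs changed for small values and for the Ankrd23 difference between operated strains, which was 1.04 with all samples. The Ablim1 interaction of 0.01 was -0.000613 with DESeq2's size factors, -0.100 with total counts and -0.000673 in DESeq2, and ran from -0.10 to 0.11 on leaving out each replicate. The Ablim1 difference between unoperated strains, -0.09, was 0.0516 with total counts. Between operated strains, leaving out each replicate moved Ablim1 between -0.19 and 0.0223, Csrp3 between -0.24 and 0.13 and Ankrd23 between -0.0442 and 1.30, and without the 3 libraries Ablim1 was 0.0310 and Ankrd23 -0.11. The cause was not tested. All 8 genes lie far above 3 counts in every sample, so the precision is set by the 4 samples a group more than by depth.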
